A study of Homo sapiens with 4 samples.

Results

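The collagen genes of the human autosomes were examined for γH2AX, the form of the histone H2A.X phosphorylated at serine 139 that is laid down in chromatin around DNA double-strand breaks. The members are the protein-coding genes of a RefSeq gene table whose symbols read COL, a number, A and a number; 42 of the 19122 autosomal protein-coding genes met this rule. The mark was located by ChIP-seq, in which DNA bound by an antibody is sequenced, in SK-UT-1 cells, an established line from a leiomyosarcoma of the uterus (a cancer of smooth muscle). The cells received 0.1% DMSO as the vehicle control, 1 µM OTS186935, which inhibits the histone methyltransferase SUV39H2, 0.5 µM doxorubicin, which traps topoisomerase II on DNA, or both drugs at those doses, called the combination. A PARP inhibitor is named in the title of the series, but here OTS186935 was paired with doxorubicin. All libraries came from the same cell line, with 1 library in each condition, so differences between conditions were not tested and are described side by side. Peak lists carry no expression values, so the identity of the cells was not checked against markers.

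Collagens are extracellular proteins built of 3 chains wound into a triple helix. Fibrillar collagens assemble into the cable-like fibrils of bone, tendon, skin and vessel walls. Type IV chains form the network of basement membranes, type VI chains form beaded filaments around muscle cells, and FACIT collagens (fibril-associated collagens with interrupted triple helices) sit on the surface of fibrils. Smooth muscle cells make both fibrillar and basement membrane collagens. Several collagen genes lie head to head in pairs that share the stretch of DNA from which both are transcribed, and many have a large number of short exons spread over a long stretch of DNA.

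The deposited lists give 1 line per summit, the point of highest signal in a called peak. They held 76870 summits for DMSO, 62008 for OTS186935, 48594 for doxorubicin and 29619 for the combination. Values given in a row of 4 follow that order throughout. Sequencing depth is not given in the sources used here. The local background, solved from the listed values, was most often 0.454, 0.397, 0.389 and 0.428 fragments in that order, and the median summit held 7 to 8 fragments, so most summits rest on few fragments. Since the lists differ in length, the main collagen values are given beside those of the other coding genes. Fewer cells carrying the mark and less of the mark per cell cannot be told apart in such lists.

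Collagen genes held more γH2AX summits than their length would give at the rate of all coding genes, and their count, like the lists as a whole, was highest with DMSO and lowest with the combination. With doxorubicin and with the combination the surplus was no longer separable from counting error once COL23A1 was left out. Their bodies, from one annotated end to the other, held 271, 204, 152 and 88 summits. Collagen genes are long, from 16.8 to 494 kb with a median of 133 kb against 24.5 kb over all coding genes. Together they span 6416 kb, which is 0.517% of the summed length of coding genes. Long genes carried fewer summits per kb, so the members were set against genes of like length. All coding genes were divided into 10 classes of equal number by length, the collagen genes were given the summits per kb of their class, and 19 of the 42 fell in the class of the longest genes. At those rates 181, 144, 113 and 68.3 summits were due in the 4 libraries, in the order above. The observed counts were 1.50 times that number with DMSO (95% Poisson interval 1.33 to 1.69), 1.42 times with OTS186935 (1.23 to 1.63), 1.34 times with doxorubicin (1.14 to 1.57) and 1.29 times with the combination (1.03 to 1.59). These intervals cover counting error only and leave out how summits cluster within genes. The median local background under collagen summits was 1.19, 1.06, 1.03 and 0.933 fragments in the 4 libraries. Under summits in other coding genes it was lower, at 0.927, 0.810, 0.769 and 0.889. Whether this goes with the surplus was not tested.

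Per kb of gene, collagen genes held 0.0422 summits with DMSO (0.0374 to 0.0476), 0.0318 with OTS186935 (0.0276 to 0.0365), 0.0237 with doxorubicin (0.0201 to 0.0278) and 0.0137 with the combination (0.0110 to 0.0169). The other coding genes held 0.0360, 0.0284, 0.0220 and 0.0131. The members made up 0.353%, 0.329%, 0.313% and 0.297% of all summits in the lists. At least 1 summit lay in 41, 35, 37 and 28 of the 42 genes in those libraries. Over all coding genes the shares were 67.6%, 60.9%, 54.7% and 41.3%, and genes of like length would have given 36.8, 34.7, 33.1 and 27.5 genes. Counted this way the members with OTS186935 and with the combination stood within 1 gene of like-length genes. With DMSO, 22 of the 42 lay above the rate of their length class, against 40.7% of all coding genes and 16.8 due for genes of like length.

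**Figure D1:**
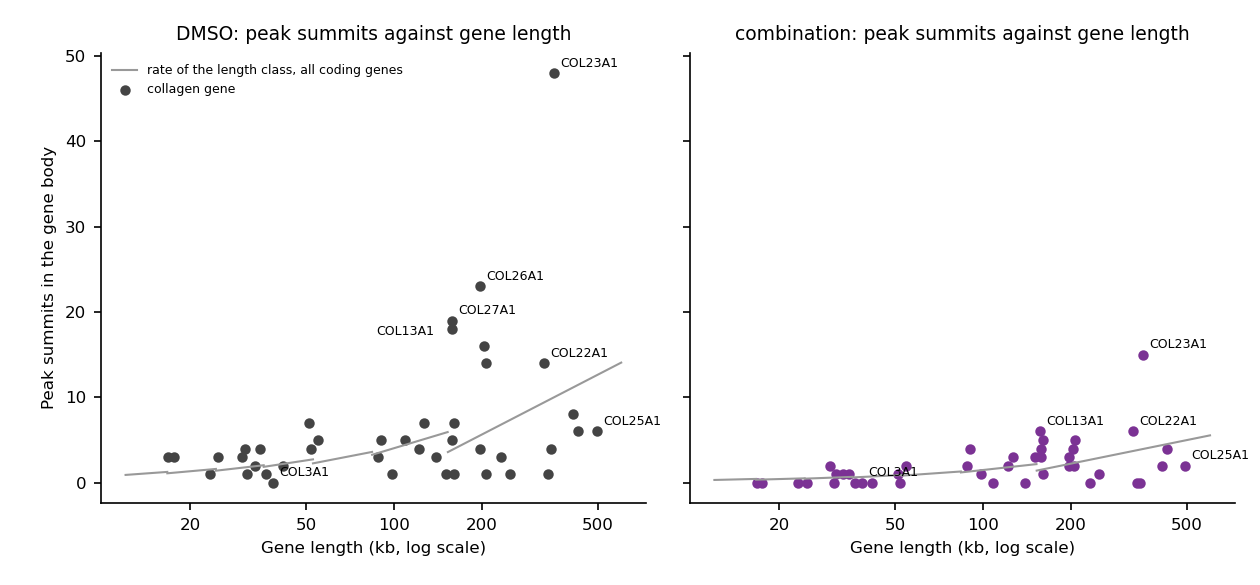
γH2AX peak summits in the body of each of the 42 collagen genes (points) against gene length on a log scale, with DMSO on the left and the combination on the right; grey lines give the summits at the rate of all coding genes of the same length class. COL23A1 holds 48 summits with DMSO and 15 with the combination, far above the line in both, while COL25A1, the longest member, lies below it with 6 and 2.

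A large part of this surplus lay in 1 gene, and its size depended on the comparison chosen. COL23A1, on chromosome 5 at 178237618 to 178590393 (353 kb), held 48, 34, 30 and 15 summits, or 17.7% of all collagen summits with DMSO. Without COL23A1 the other 41 genes held 1.29 (1.13 to 1.48), 1.24 (1.06 to 1.44), 1.13 (0.938 to 1.35) and 1.12 (0.879 to 1.41) times the like-length number, so the intervals for doxorubicin and the combination contained 1. Position along the chromosome moved with the result too, since coding genes near chromosome ends carried more summits per kb. Of the collagen genes 23.8% (10 of 42) lay within 5 Mb of a chromosome end, against 13.4% of the other coding genes. Those 10 held 0.0828 summits per kb with DMSO and 0.0257 with the combination, where other genes so placed held 0.0753 and 0.0248. COL23A1 was 1 of those 10 and gave 48 of their 103 summits with DMSO and 15 of their 32 with the combination. Leaving out COL23A1 and leaving out genes near chromosome ends therefore overlap. The density of the genes near chromosome ends without COL23A1 was not computed. The 32 members farther in held 0.0325 with DMSO and 0.0108 with the combination, against 0.0323 and 0.0120 for other genes farther in. Among genes farther in only, the members stood at 1.31 (1.12 to 1.52), 1.16 (0.965 to 1.39), 1.09 (0.878 to 1.34) and 1.13 (0.851 to 1.46) times the like-length number, with only the DMSO interval above 1. The longest of the 10 length classes ran from 152759 to 2473620 bp, far past the longest member, COL25A1, at 493934 bp. With 20 length classes in place of 10, all ratios over the 42 members were lower. They were 1.41 (1.25 to 1.59), 1.33 (1.16 to 1.53), 1.26 (1.07 to 1.48) and 1.21 (0.972 to 1.49).

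Set against their own surroundings, the collagen genes gave an answer that turned on how the surroundings were averaged. Each gene's length times the summit rate of the 500 kb on either side gave 202, 150, 121 and 75.6 summits, so the members stood at 1.34 (1.19 to 1.51), 1.36 (1.18 to 1.56), 1.25 (1.06 to 1.47) and 1.16 (0.93 to 1.43) times that number. When the flanks of all members were pooled with equal weight instead, so that short genes in crowded regions counted as much as long ones, the ratio was 0.957, 0.922, 0.916 and 0.901. Other coding genes in the longest class, which holds 19 of the members, stood at 0.881, 0.894, 0.892 and 0.888 by the first measure. By the second they stood at 0.800, 0.807, 0.814 and 0.814. Other genes in the shorter classes that hold the remaining members stood above 1 by both measures. With DMSO they ranged from 1.04 to 1.31 by the first. Gene by gene, 25, 23, 24 and 22 of the 42 collagen genes were denser than their flanks. The shares of all coding genes were 47.2%, 43.3%, 40.3% and 32.2%, and genes of like length would have given 19.3, 18.9, 18.8 and 17.0 genes.

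**Figure D2:**
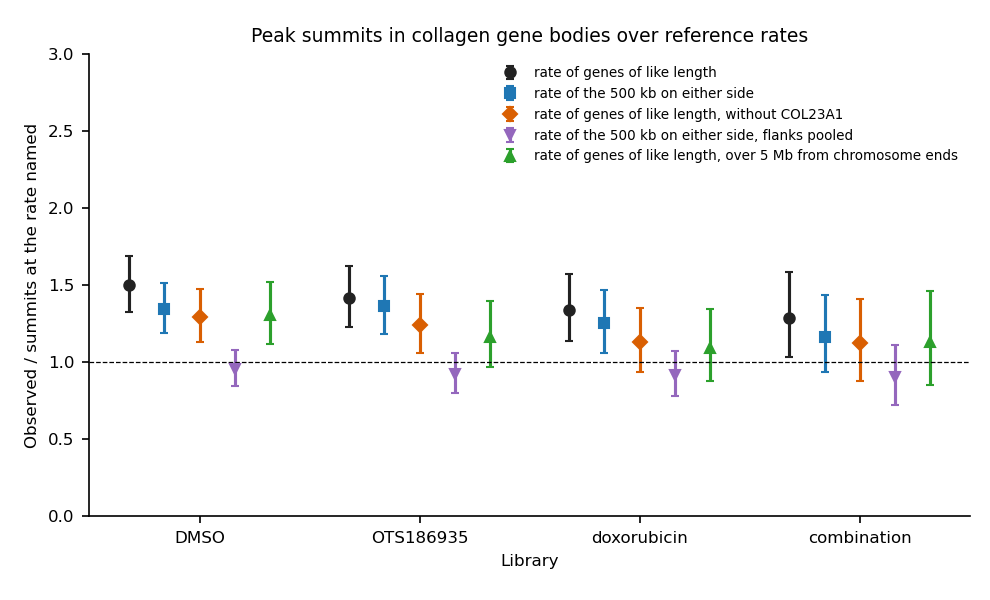
Observed γH2AX summits in collagen gene bodies divided by the number at a reference rate (vertical axis, dashed line at 1) in the 4 libraries, with 95% Poisson intervals for counting error as bars. The ratio to genes of like length falls from 1.50 with DMSO to 1.29 with the combination, is lower without COL23A1 and away from chromosome ends, and lies below 1 where the flanking 500 kb are pooled with equal weight.

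The 11 fibrillar collagen genes held 69, 50, 32 and 16 summits, which is 1.54, 1.40, 1.14 and 0.946 times the like-length number. The type I and type III genes, which encode the most abundant fibril proteins of the body, carried few summits. COL3A1, the type III chain of vessel walls and other hollow organs, was the 1 member with no summit in any library. Its flanks of 1000 kb held 17, 10, 11 and 8, and at that rate fewer than 1 summit would fall in its 38.4 kb. Its like-length numbers were higher, at 1.99, 1.55, 1.14 and 0.652. COL1A1 held 3 summits with DMSO and none in the other libraries. Since it is only 17.5 kb long, those 3 came to 0.171 per kb, 2.61 times its like-length number and more than in 92.5% of its length class. COL1A2 held 1 with DMSO and none in the others. COL5A2, which lies 19.2 kb from COL3A1 and is the third longest member, held 8, 6, 2 and 2 summits. Type V chains help start the assembly of type I fibrils, and COL5A3 and COL5A1 were denser than COL5A2. COL5A3 held 7, 5, 3 and 1 summits, or 0.137 per kb with DMSO, and COL5A1 held 16, 15, 9 and 4, or 0.0788 per kb with DMSO. COL27A1, a cartilage collagen, held 19, 13, 9 and 4, which was 0.120 per kb with DMSO and more than in 98.9% of genes in its length class. COL24A1, the second longest member at 428 kb, held 6 with DMSO and 4 in each of the other libraries, below the like-length number of 10.0 with DMSO and at 1.01 times that number with the combination. COL2A1, COL11A1 and COL11A2 held between 0 and 4 in every library. In each of the fibrillar genes with summits named by count above, the DMSO count was the highest and the combination count the lowest or tied for it.

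The 4 basement membrane genes held 24, 18, 14 and 13 summits, 1.26, 1.18, 1.16 and 1.78 times the like-length number. COL4A1 and COL4A2, which encode the chains found in nearly all basement membranes, lie 126 bp apart and run in opposite directions. COL4A2 held 14, 7, 6 and 5 summits and COL4A1 held 5, 8, 3 and 3, so the count of COL4A1 was highest with OTS186935. COL4A3 and COL4A4, whose chains are found in the kidney glomerulus, lie 135 bp apart, also head to head. COL4A3 held 1, 0, 4 and 3 summits and COL4A4 held 4, 3, 1 and 2. COL4A3 was thus 1 of 2 collagen genes with more summits with the combination than with DMSO, the other being COL28A1.

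The 5 beaded-filament genes held 20, 18, 11 and 10 summits, 1.24, 1.41, 1.11 and 1.70 times the like-length number. COL6A1, COL6A2 and COL6A3 encode the chains of the common type VI filament, and COL6A5 and COL6A6 encode chains that can take the place of the third. COL6A3 held 5, 7, 4 and 4 summits, COL6A6 held 7, 5, 4 and 5, and COL6A5 held 3, 1, 1 and 0. COL6A1 and COL6A2 lie 93.1 kb apart near the end of chromosome 21, and both were sparser than their surroundings with DMSO. COL6A1 held 0.0430 summits per kb there and COL6A2 0.115, while their flanks held 0.147 and 0.151. These densities rest on 1 and 4 summits, too few to separate from counting error. Against genes of like length COL6A1 stood at 0.656 and COL6A2 at 2.02 with DMSO. The stretch between them held 16, 16, 11 and 4 summits. Between COL6A5 and COL6A6, 31.9 kb apart, there were none in the first 3 libraries and 1 with the combination.

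The 10 FACIT genes held fewer summits than genes of like length, 39, 27, 26 and 11, or 0.866, 0.752, 0.921 and 0.647 times that number. Each 95% interval reached past 1 (for DMSO 0.616 to 1.18). COL22A1, which encodes a collagen of the junction between muscle and tendon, held 14, 11, 9 and 6 of them. COL21A1, of 338 kb, held 1, 2, 2 and 0, and each of the other 8 held between 0 and 4 in every library. The 2 multiplexin genes, COL15A1 and COL18A1, the latter the source of endostatin, held 7, 9, 7 and 3 summits and 5, 6, 4 and 0. The 4 genes of short-chain collagens and the anchoring fibril (COL7A1, COL8A1, COL8A2 and COL10A1) held 6, 7, 7 and 5. In these last 2 classes OTS186935 gave as many summits as DMSO or more, on counts too small to separate the libraries.

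The 4 transmembrane collagen genes held the most summits of any class for their length, 77, 57, 43 and 25, or 2.98 (2.35 to 3.72), 2.74, 2.60 and 2.47 times the like-length number. COL23A1 gave 48 of the 77 with DMSO, and without it the class stood at 1.65, 1.62, 1.16 and 1.46. COL13A1, which encodes a membrane collagen of the neuromuscular junction, held 18, 16, 8 and 6 summits in 157 kb, or 0.114 per kb with DMSO. COL17A1, a collagen of the hemidesmosomes that anchor epithelial cells, held 5, 3, 2 and 2 in 54.6 kb. COL25A1, of 494 kb the longest member, held 6, 4, 3 and 2, which is 0.518 times its like-length number with DMSO, so the class was not dense throughout. COL26A1, which belongs to no classical class, held 23, 11, 6 and 3 summits in 197 kb. Among the 6 densest genes with 5 or more DMSO summits (COL5A3, COL23A1, COL27A1, COL26A1, COL13A1 and COL17A1), it kept the smallest share of its DMSO count with the combination. COL5A3, with 7 summits with DMSO and 1 with the combination, kept nearly as small a share, and such counts do not order them. COL28A1, the other unclassed gene, held 1, 1, 2 and 2.

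**Figure D3:**
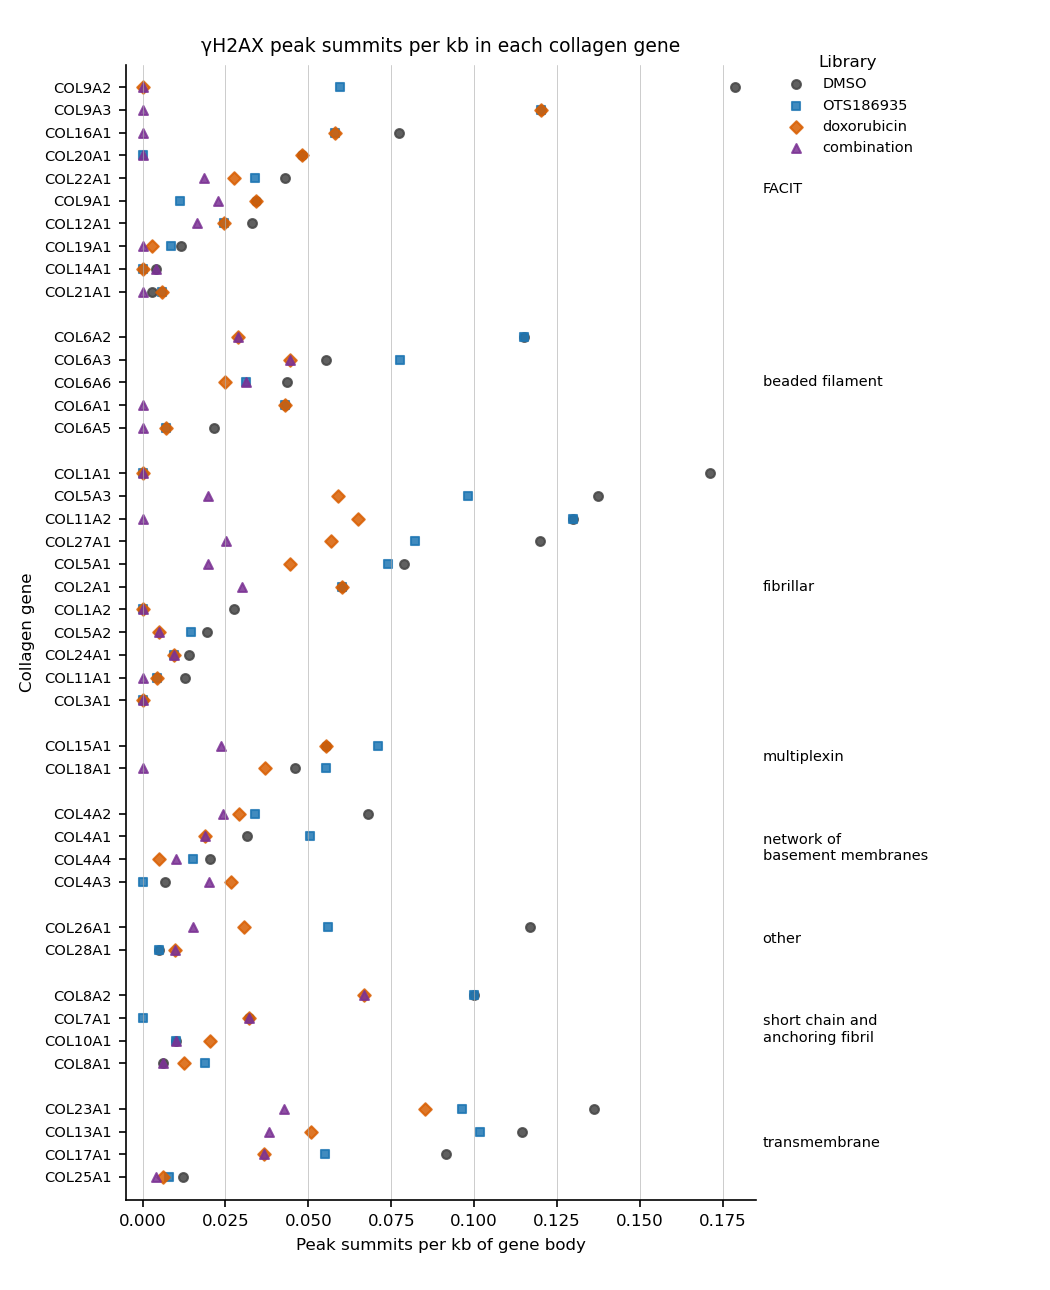
γH2AX peak summits per kb of gene body (horizontal axis) for each of the 42 collagen genes, grouped by collagen class, with 1 point per library. COL23A1, COL13A1, COL26A1, COL27A1 and COL5A3 lie above 0.11 per kb with DMSO on 7 or more summits, while COL9A2 and COL1A1, the 2 highest DMSO points, rest on 3 summits each.

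Within COL23A1 the summits ran the whole length of the gene, with no single hot spot. The gene held 0.136, 0.0964, 0.0850 and 0.0425 summits per kb in the 4 libraries, against 0.052, 0.029, 0.033 and 0.018 in the 500 kb on either side. With DMSO its density was higher than that of 99.3% of genes in its length class. When peaks of the 4 libraries that overlapped were joined into regions, 5 regions in COL23A1 held a peak in every library, the highest number of any collagen gene. COL13A1, COL22A1 and COL6A6 held 3 each. The tallest of the COL23A1 summits by −log10 q with DMSO lay 13.3 kb from the 5′ end at a fold enrichment of 6.97, from 25 fragments over a background of 2.73. The joined region there also held peaks with OTS186935, doxorubicin and the combination, at fold enrichments of 5.56, 5.83 and 3.38. In the 19 collagen genes of 100 kb or more with a known strand, cut into 3 equal stretches from the 5′ end, 40.1%, 31.8% and 28.1% of DMSO summits fell in the first, middle and last stretch. Other genes of that length had 35.3%, 29.5% and 35.2%.

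**Figure D4:**
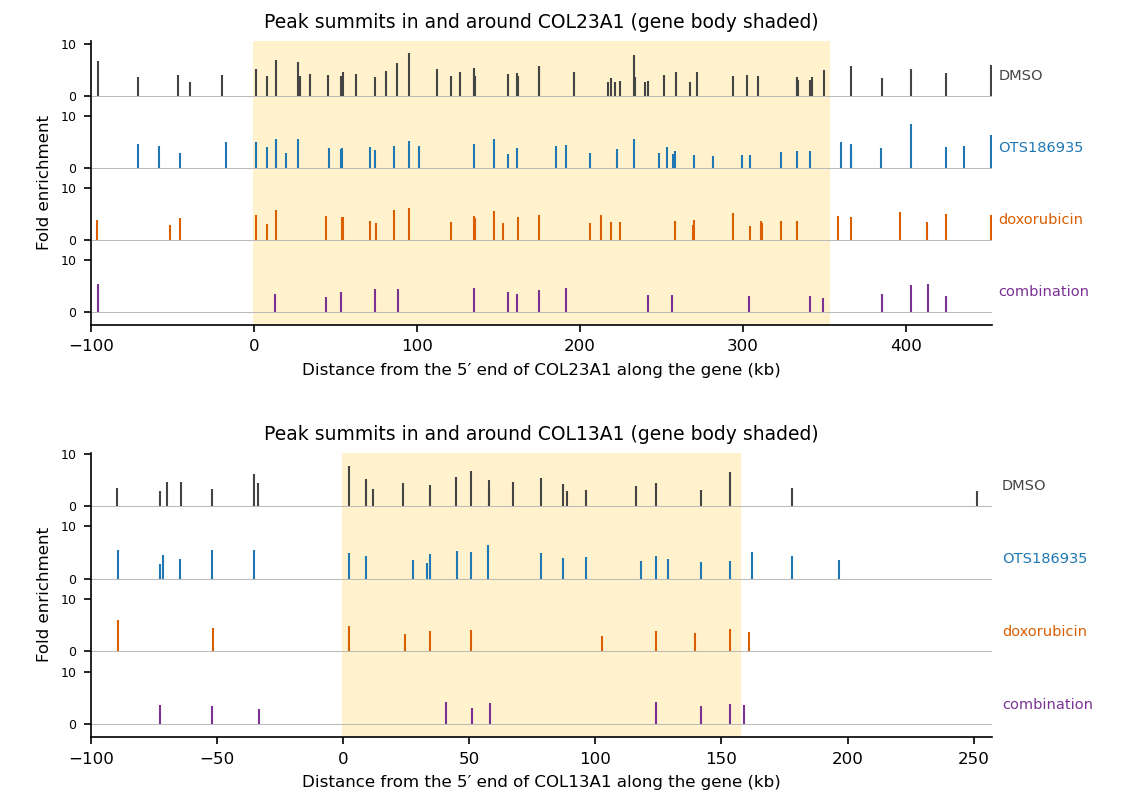
Positions of γH2AX summits along COL23A1 (top) and COL13A1 (bottom) with 100 kb on either side, in kb from the 5′ end along the gene; each vertical line is 1 summit, its height is the authors' fold enrichment, and the gene body is shaded. Summits are spread along both genes, thin out from DMSO to the combination, and in COL23A1 number 48, 34, 30 and 15.

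Peaks at the ends of collagen genes were more frequent than over all coding genes in every library. A gene-end peak is a called peak that overlaps by 1 bp or more the window of 1 kb on either side of an annotated end. It was found for 24 of 42 genes with DMSO (57.1%, exact Clopper-Pearson 95% interval 41.0 to 72.3), 17 with OTS186935 (40.5%, 25.6 to 56.7), 13 with doxorubicin (31.0%, 17.6 to 47.1) and 9 with the combination (21.4%, 10.3 to 36.8). Over all coding genes the shares were 38.3%, 28.1%, 21.1% and 14.2%. Genes of like length would have given 17.8, 12.6, 9.66 and 7.02 of 42. The DMSO interval lay above the share of all coding genes but contained the like-length number, and in the other 3 libraries the interval contained both.

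The reference gave strand for 30 of the 42 genes, and in these the peaks lay mostly at the 5′ end, where transcription starts. A 5′ peak was present in 16, 9, 7 and 7 of the 30, against 29.4%, 20%, 14.4% and 10.1% of the 15100 coding genes with a known strand. A 3′ peak was present in 3, 5, 3 and 2, against 13.8%, 10.9%, 8.48% and 5.13%. The 5′ count with the combination equalled that with doxorubicin, while the 3′ counts were too small to order the libraries. The reference promoter, the 250 bases before and the first 50 bases after the start of transcription, was itself overlapped by a peak in 9, 8, 5 and 6 of 30 collagen genes and in 13.3%, 9.01%, 6.24% and 4.69% of all such promoters. Like-length numbers were not computed for the 5′, 3′ and promoter counts. Among the longest class of coding genes 47.3%, 34.0%, 27.0% and 21.5% had a peak at either end. COL4A3 and COL4A4 both enter the 5′ and promoter counts through the same peaks.

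**Figure D5:**
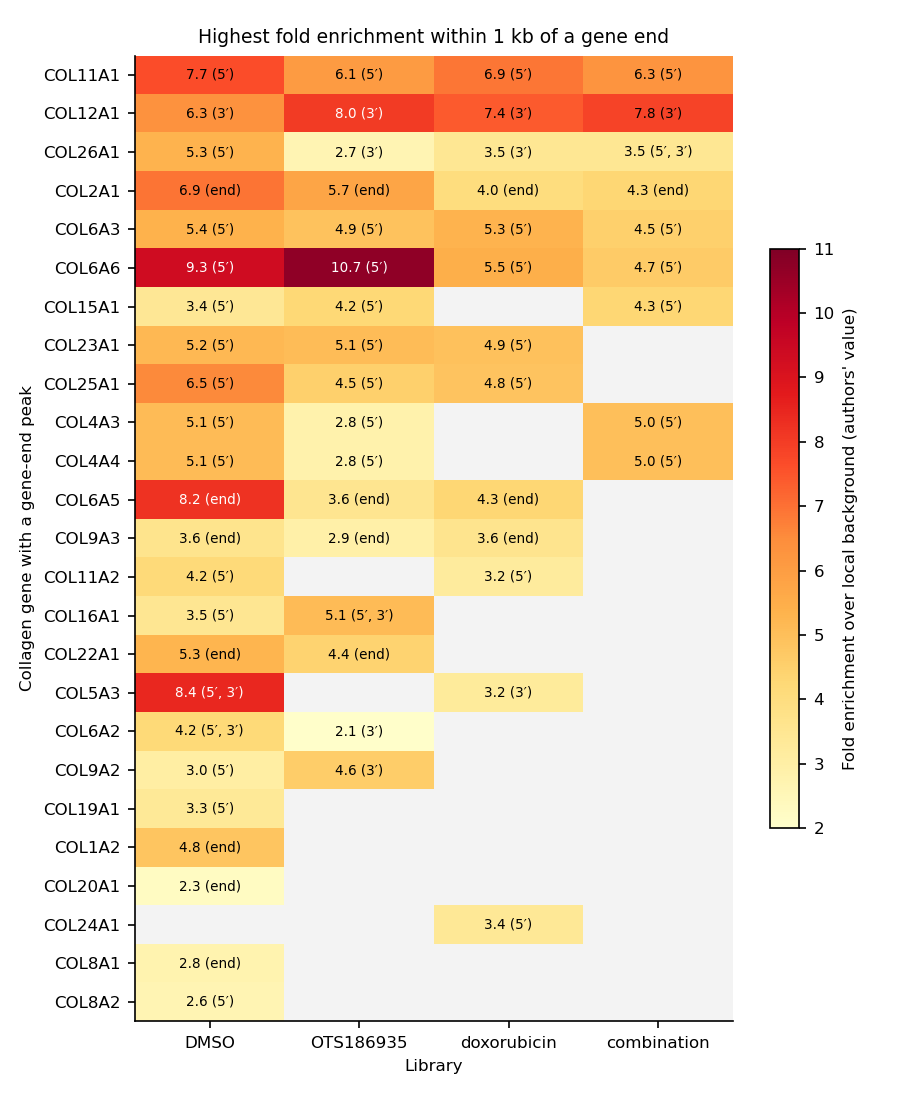
Highest authors' fold enrichment of a peak within 1 kb of either end of the 25 collagen genes with such a peak in any library (rows), in the 4 libraries (columns); 5′ and 3′ mark the end, "end" stands where strand was not given, and grey means no peak. COL6A6 reaches 9.34 and 10.7 in the first 2 libraries, and 6 genes hold a peak in all 4.

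COL6A6, COL11A1, COL6A3, COL12A1, COL26A1 and COL2A1 had a gene-end peak in all 4 libraries, as did 7.18% of all coding genes. The strongest was at the start of COL6A6, where fold enrichment was 9.34, 10.7, 5.45 and 4.65. Its summits held 17, 18, 8 and 6 fragments and all lay within 132 bp of the reference start. COL11A1, which encodes a cartilage fibril chain also made in tumour stroma, had values at its 5′ end of 7.66, 6.06, 6.90 and 6.28. At COL12A1, which encodes a FACIT of tendon and ligament, the peak lay at the 3′ end, inside the gene. Its 4 summits fell 901 to 939 bp before the end, with fold enrichments of 6.33, 8.02, 7.39 and 7.84 from 9, 13, 10 and 13 fragments. The COL6A3 peaks lay 955 to 1856 bp inside the 5′ end at 5.37, 4.89, 5.32 and 4.52. At COL2A1, the type II chain of cartilage, the peak at the upper coordinate end stood at 6.94, 5.74, 4.02 and 4.30. COL26A1 changed ends between libraries, with a 5′ peak with DMSO (5.31), 3′ peaks with OTS186935 and doxorubicin (2.65 and 3.47), and both with the combination (3.13 and 3.45).

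Collagen promoters were slightly richer in GC than those of all coding genes. The 30 collagen promoters had a median GC content of 66.7%, against 63% over 15100 coding-gene promoters, and a median of 23 CpG dinucleotides against 22. The 17 with a 5′ peak in any library had a median of 67.7% GC and 24 CpG, and the 13 without had 63.3% and 17. This split goes by the window at the annotated 5′ end, not by a peak over the promoter itself. COL9A1, with a promoter peak in all 4 libraries, is thus among the 13. COL8A2, COL9A2, COL6A3, COL11A2, COL19A1 and COL6A2, with no promoter peak in any library, are among the 17. Motifs were searched on both strands: TATAAA was present in 5 of 30 (16.7%) against 9.71% of all promoters of this length, CCAAT in 8 (26.7%) against 36.0%, and GGGCGG in 18 (60%) against 58.9%. Each motif was counted on its own, so matches of different motifs may share bases. The sequences shown are the RefSeq promoters (GRCh38.p14) of 3 genes whose promoter was overlapped by a peak in all 4 libraries, COL11A1 (chr1:103108473-103108772, minus strand), COL6A6 (chr3:130516927-130517226, plus strand) and COL9A1 (chr6:70283148-70283447, minus strand). COL4A3 (chr2:227164374-227164673, plus strand), peaked in 3 libraries, and COL4A1 (chr13:110307108-110307407, minus strand), with no peak in any, stand for the head-to-head pairs. Each runs 5′ to 3′ on the gene's strand, with every CpG in capitals.
COL11A1: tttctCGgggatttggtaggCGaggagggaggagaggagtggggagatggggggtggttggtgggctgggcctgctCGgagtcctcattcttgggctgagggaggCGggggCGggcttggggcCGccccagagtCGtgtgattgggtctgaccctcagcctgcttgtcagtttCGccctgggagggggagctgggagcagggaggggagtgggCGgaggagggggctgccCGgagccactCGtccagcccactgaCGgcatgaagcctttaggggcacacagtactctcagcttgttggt
COL6A6: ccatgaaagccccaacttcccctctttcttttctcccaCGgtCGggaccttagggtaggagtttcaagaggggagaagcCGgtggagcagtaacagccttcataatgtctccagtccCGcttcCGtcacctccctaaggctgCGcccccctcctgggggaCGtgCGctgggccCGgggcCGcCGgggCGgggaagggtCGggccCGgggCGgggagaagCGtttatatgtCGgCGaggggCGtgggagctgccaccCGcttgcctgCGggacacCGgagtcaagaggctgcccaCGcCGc
COL9A1: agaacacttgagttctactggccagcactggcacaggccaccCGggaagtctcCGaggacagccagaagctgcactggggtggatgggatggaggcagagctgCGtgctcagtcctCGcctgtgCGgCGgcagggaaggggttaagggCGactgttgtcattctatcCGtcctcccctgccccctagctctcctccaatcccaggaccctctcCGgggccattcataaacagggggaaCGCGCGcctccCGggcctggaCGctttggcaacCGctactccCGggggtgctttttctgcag
COL4A3: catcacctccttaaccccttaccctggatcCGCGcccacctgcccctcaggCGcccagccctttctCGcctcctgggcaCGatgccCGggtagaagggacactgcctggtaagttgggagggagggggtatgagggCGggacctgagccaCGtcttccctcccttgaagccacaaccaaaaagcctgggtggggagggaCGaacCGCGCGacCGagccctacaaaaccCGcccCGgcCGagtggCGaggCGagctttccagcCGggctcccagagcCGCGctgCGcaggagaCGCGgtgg
COL4A1: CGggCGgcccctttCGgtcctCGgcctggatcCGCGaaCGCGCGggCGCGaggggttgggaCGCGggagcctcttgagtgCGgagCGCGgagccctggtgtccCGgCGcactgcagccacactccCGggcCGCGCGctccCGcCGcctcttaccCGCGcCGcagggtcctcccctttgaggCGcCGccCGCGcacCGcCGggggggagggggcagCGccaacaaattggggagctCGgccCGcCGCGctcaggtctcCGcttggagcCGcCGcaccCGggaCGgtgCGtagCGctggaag

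Promoters with a peak in every library were not the richest in CpG among those shown. The COL11A1 promoter held 12 CpG and 66% GC, COL9A1 16 and 63.3%, COL6A6 24 and 67%, COL4A3 24 and 67.7%, and the unpeaked COL4A1 promoter 45 and 76.7%. COL9A1, which encodes a cartilage FACIT, is listed among the genes without a gene-end peak because its reference start lies 19.9 kb inside the annotated extent. At that start the fold enrichment was 4.82, 5.77, 4.62 and 4.42, with summits of 8 to 11 fragments in the 4 libraries. The reference start also lay inside the extent of COL21A1 (147 kb), COL28A1 (8.00 kb), COL27A1 (1.44 kb) and, by under 0.5 kb, of COL26A1, COL6A6, COL4A4 and COL24A1. Of these, COL21A1, COL28A1 and COL27A1 had no peak over the reference promoter in any library.

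The 2 head-to-head pairs differed. No library had a summit between COL4A1 and COL4A2 or a peak at either shared start. At the start shared by COL4A3 and COL4A4 there was a peak of fold enrichment 5.11 with DMSO, 2.82 with OTS186935, and 2 peaks of 5.00 and 3.33 with the combination. With doxorubicin no peak was called there. Since the windows of the pair overlap, the same peaks count for both genes. The OTS186935 peak rested on 3 fragments. COL15A1 had the same pattern, with 5′ peaks of 3.44, 4.25 and 4.31 in the libraries other than doxorubicin.

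A gene-end peak in all libraries but the combination was found at 4 genes, COL6A5 (8.20, 3.58 and 4.32), COL25A1 (6.54, 4.50 and 4.85), COL23A1 (5.17, 5.07 and 4.92) and COL9A3 (3.64, 2.92 and 3.59). COL16A1, COL9A2, COL22A1 and COL6A2 had one with DMSO and OTS186935 alone. At COL16A1 the peaks at the start stood at 3.50 and 5.10, with summits 28 and 25 bp from it. COL11A2 (4.16 and 3.23) and COL5A3 (8.45 and 3.23) had one with DMSO and doxorubicin. With OTS186935 a peak lay in the same joined region at both, at 3.94 and 5.67, but outside the 1 kb window. COL8A2, COL8A1, COL19A1, COL1A2 and COL20A1 had one with DMSO alone, from 2.28 at COL20A1 to 4.81 at COL1A2, and COL24A1 had one with doxorubicin alone at 3.39. That COL24A1 peak rested on 5 fragments. A joined region outside the window, centred 1.75 kb from the COL24A1 5′ end, held a peak in all 4 libraries (7.05, 5.16, 5.65 and 5.65). The COL11A2 window also holds an end of RXRB and the COL9A3 window an end of TCFL5, so those peaks cannot be assigned to the collagen gene. No library had a gene-end peak for the other 17 members, COL3A1, COL1A1, COL4A1 and COL4A2 among them.

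Under each treatment the count in collagen genes was lower than with DMSO by about as much as in the other coding genes. OTS186935 gave 0.753 times the DMSO count in collagen gene bodies (exact 95% interval 0.625 to 0.906), doxorubicin 0.561 (0.457 to 0.687) and the combination 0.325 (0.252 to 0.414). The other coding genes gave 0.789, 0.612 and 0.363, each inside the interval of the members. Against the single drugs the combination gave 0.431 of the OTS186935 count and 0.579 of the doxorubicin count, beside 0.460 and 0.593 for other genes. When each list was cut to the 29619 summits of highest −log10 p, the collagen ratios to DMSO were 0.990, 0.948 and 0.917, beside 0.964, 0.975 and 0.956 in other genes. Lists of equal length bring the ratio of any large set of genes near 1.

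Gene by gene, the count was lower than with DMSO in 27 (OTS186935), 29 (doxorubicin) and 35 (combination) of the 42 collagen genes. Over all coding genes the shares were 37.8%, 46.1% and 56.1%, and genes of like length would have given 22.4, 26.3 and 32.1. It was higher in 6 with OTS186935 (COL6A3, COL8A1, COL21A1, COL15A1, COL4A1 and COL18A1), against 16.6% of all coding genes and 8.68 due. It was higher in 5 with doxorubicin (COL4A3, COL8A1, COL21A1, COL10A1 and COL28A1), against 10.9% and 5.57 due, and in 2 with the combination, against 4.46% and 1.96 due. No rise exceeded 3 summits.

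Peaks also recurred at the same places about as often as elsewhere, with OTS186935 somewhat above. Of the 271 DMSO summits in collagen genes, 144 had a peak that overlapped an OTS186935 peak (53.1%, 47.0 to 59.2, against 46.0% in other genes), 101 one of doxorubicin (37.3%, 31.5 to 43.3, against 36.5%) and 65 one of the combination (24.0%, 19.0 to 29.5, against 24.0%). Of the 24 genes with a DMSO gene-end peak, 17 (70.8%) kept one under OTS186935, 12 (50%) under doxorubicin and 9 (37.5%) under the combination, whether or not the peaks overlapped. Over all coding genes with one in DMSO the shares were 55.4%, 43% and 30.5%. Joined over the libraries, collagen genes held 387 regions, of which 33 (8.53%) were found in all 4 libraries and 207 (53.5%) in 1. Other coding genes had 6.94% and 58.3%. These comparisons share the DMSO library, so they are not independent of each other.

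Strong peaks were fewer under treatment by a larger factor than all peaks. With −log10 q of 5 or more there were 68, 28, 10 and 8 summits in collagen genes, 25.1%, 13.7%, 6.58% and 9.09% of the members' summits. Other coding genes had 24.5%, 16.8%, 9.51% and 7.43%. The strong summits came to 0.412 (0.255 to 0.648), 0.147 (0.0675 to 0.287) and 0.118 (0.0488 to 0.245) times the DMSO number, beside 0.538, 0.237 and 0.112 in other coding genes, each inside the interval of the members. Of the 68 strong DMSO summits, 72.1%, 58.8% and 35.3% had a peak that overlapped any peak of OTS186935, doxorubicin and the combination, beside 63.7%, 55.2% and 39.9% in other genes. Ranked by −log10 q, the strongest DMSO summits after the COL6A6 start lay in COL23A1, at COL12A1 3.96 kb from its 5′ end (fold enrichment 7.80) and at COL5A1 29.2 kb from its 5′ end (8.52). By the same measure the first with the combination were the 3′ peak of COL12A1 (7.84) and a summit in COL24A1 (7.70), from 13 and 10 fragments.

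Genes whose products make, process or bind collagen gave a reference within the same biology. Of 51 such genes listed, 50 are autosomal. Their bodies held 134, 103, 99 and 44 summits, 1.23, 1.20, 1.50 and 1.12 times the like-length number, and 17, 11, 12 and 5 had a gene-end peak where 19.2, 13.8, 10.4 and 6.95 were due. In the first 3 libraries most of the surplus lay in the 6 genes listed for cleavage of procollagen ends, PCOLCE and PCOLCE2 included. These held 43, 34 and 37 summits where 21.9, 17.5 and 13.7 were due. With the combination they held 11 where 8.24 were due, and the receptors, with 16 where 9.07 were due, gave the larger part. Among the cleavage genes ADAMTS2 held 25, 19, 23 and 5 summits and ADAMTS14 held 11, 8, 7 and 3. ADAMTS2 thus gave most of the cleavage summits in the first 3 libraries. It lies on chromosome 5 at 179110853 to 179345461, between COL23A1 and the nearer chromosome end. Genes near chromosome ends carried more summits per kb, and the part of position in this surplus was not tested. No intervals were computed for these lists. The 19 genes of chain folding and hydroxylation stood at 1.06, 0.868, 0.861 and 0.540, and the 9 receptors at 0.845, 1.12, 1.37 and 1.76. ITGA11, the chain of a fibrillar collagen integrin, held 14, 8, 8 and 8 and had a gene-end peak in every library. Of these genes MMP2, a gelatinase, was the other with a gene-end peak in all 4. LOX, which cross-links collagen, the receptor DDR2 and the collagenases MMP1, MMP8 and MMP13 had no summit in any library.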

How the data were processed

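The 4 peak lists, 1 per library of SK-UT-1 cells, were γH2AX ChIP-seq. Per the labels' protocols, sonicated chromatin was precipitated with an antibody to H2A.X phosphorylated at serine 139 and made into libraries with a ThruPLEX kit. Per the submitters' processing notes the tools were MACS2 2.2.7.1, Bowtie2 2.4.2, bedtools 2.30.0 and Picard 2.25.3, on hg38. How each was set, and whether an input library served as control, is not given in the sources used here. The authors deposited for each summit a fold enrichment over local background (a ratio), the −log10 p and −log10 q, a score and the summit's offset from the peak start. The deposited score was not used. Fold enrichment describes peaks within 1 list, so values printed side by side for the 4 libraries give no order.

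Gene extents came from RefSeq (GRCh38.p14), and strand and promoters from a RefSeq promoter table that matched 30 of 42 members. Sequences were not printed for the others. Summits were assigned by position, and 4 members overlap another coding gene. Like-length numbers use 10 length classes of 19122 genes. Poisson and Clopper-Pearson intervals are at 95% and cover counting error only. Fragments at a summit were solved from fold and −log10 p, and came out whole for 100% of summits, meaning that a whole number returned the listed −log10 p within 0.01. With 1 library per condition no test was run. On simulated data 100% of 1970 fragment numbers were recovered, a planted ratio of 2 came back as 2.00 and overlaps differed from direct counting in 0 cases.

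The members, lists and comparisons were chosen with earlier results of these data known. Named genes are those with a gene-end peak, the 6 densest with DMSO among those with 5 or more summits, the 3 longest, those with no summit and 5 neighbouring pairs; others named beside them complete a class. Alternatives were a −log10 q limit of 5, lists of equal length, joined peaks, windows of 2.5 kb, a reciprocal overlap of 50%, trimmed gene bodies, 20 length classes and leaving out COL23A1. The 500 kb flanks, in both averages, and the 5 Mb limit were added after seeing the data. Python 3.11.15, numpy 2.4.6, pandas 2.3.3 and scipy 1.17.1 were used.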

Additional observations from a re-analysis of the deposited data

Results flagged for a closer look

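In 3 collagen genes with 5 or more DMSO summits, the count moved in opposite directions when OTS186935 was given without and with doxorubicin. COL6A6 changed by -2 summits from DMSO to OTS186935 and by 1 from doxorubicin to the combination. COL15A1 changed by 2 and by -4, and COL18A1 by 1 and by -4. Each value compares single libraries and the difference was not tested.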

How the results depend on the processing

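Of 99 recomputed values, 54 stayed within the counting interval of the reported value (for numbers of genes, within 1.5 times it) and 45 moved; values are in the order DMSO, OTS186935, doxorubicin, combination unless named. With −log10 q of 5 or more, summits per kb were 0.0106, 0.00436, 0.00156 and 0.00125, genes with a gene-end peak 9, 5, 2 and 2 (over all coding genes 10.3%, 5.74%, 2.59% and 1.09%), and treated over DMSO counts 0.412, 0.147 and 0.118 for the 3 treatments (other genes 0.538, 0.237 and 0.112). DMSO summits found again were 23.5%, 8.82% and 5.88% where the treated peak had to pass the same limit. The ratio to genes of like length was then 1.51, 1.15 (0.764 to 1.66), 0.925 (0.444 to 1.70) and 1.43 (0.618 to 2.82), so the intervals of the 3 treatments contained 1 as well as the reported ratio. With lists of equal length, summits per kb were 0.0150, 0.0148 and 0.0142 in the first 3 libraries, treated over DMSO counts 0.990, 0.948 and 0.917 (other genes 0.964, 0.975 and 0.956), gene-end peaks 9 with OTS186935 (all coding genes 14.2%), and summits found again 43.8% with doxorubicin and 35.4% with the combination. Windows of 2.5 kb gave 26, 21 and 14 genes under the 3 treatments, against 43.7%, 34.1% and 23.1% of all coding genes. A reciprocal overlap of 50% gave 42.1%, 26.6% and 18.1% found again. Leaving out COL23A1 gave 0.0368 summits per kb with DMSO and ratios of 1.29 with DMSO and 1.13 with doxorubicin, the latter and the combination (1.12) no longer separable from 1. Added after seeing the data, genes over 5 Mb from chromosome ends gave 0.0325, 0.0230, 0.0172 and 0.0108 per kb and ratios of 1.31, 1.16 and 1.09 in the first 3 libraries, with only DMSO separable from 1. Also added then, flanks of 500 kb pooled with equal weight gave 0.957, 0.922, 0.916 and 0.901; this average was computed first and the one weighted by gene length, 1.34, 1.36, 1.25 and 1.16, was chosen for the report after it had been seen. The 2 averages fall on opposite sides of 1, and the cause was not tested. Joined peaks, trimmed gene bodies and 20 length classes kept every value within the reported interval. With 20 length classes all ratios to genes of like length were lower, at 1.41, 1.33, 1.26 and 1.21. The combination ratio (0.972 to 1.49) was then no longer separable from 1. No paired analysis was possible because each condition has 1 library and no test was run.

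Summits of the whole lists rested on a median of 7 to 8 fragments, and the combination list was the shortest. Those in collagen genes rested on medians of 10, 9, 8 and 8 fragments with DMSO, OTS186935, doxorubicin and the combination. A missing peak means that none was called, not that the mark was absent. Single genes held few summits, so differences of a few summits between libraries cannot be told from counting error.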

Other observations

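The X-linked collagen genes lay outside the rule. COL4A5 and COL4A6, basement membrane chains that start close together on the X chromosome, differed in these lists. COL4A6 held 5, 2, 4 and 2 summits in the DMSO, OTS186935, doxorubicin and combination libraries, over 284 kb. COL4A5 held none in 258 kb in any library, and neither gene had a gene-end peak.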
